A study of Homo sapiens with 8 samples.

Results

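AUF1 is an RNA-binding protein encoded by HNRNPD. Alternative splicing of exons 2 and 7 gives it the isoforms p37, p40, p42 and p45. The comparison here set libraries of cells that overexpressed an isoform with exon 2 against libraries of cells that overexpressed an isoform without it. The exon 2 side held the p40 library (exon 2, no exon 7) and the p45 library (both exons). The other side held the p37 library (neither exon) and the p42 library (exon 7, no exon 2). These are 4 of the 8 libraries of the series, chosen by their labels and not by any measured value. The cells were HEK293, an established human embryonic kidney line, transfected with 1 Flag-tagged isoform each. The other libraries came from cells given all isoforms together, an empty vector, a control siRNA or an siRNA against AUF1, and they are used here only to place values. Total RNA was amplified and sequenced, and each library has 1 deposited table of FPKM, which sets the fragments assigned to a transcript against its length and against all mapped fragments. FPKM was summed per gene and scaled between libraries.

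Each condition had 1 library, and nothing in the labels says that any were separate cultures of the same condition. Both libraries of a side differ from each other in exon 7, so they are not replicates, and the spread between them holds that difference as well. Relative depth, as deposited coverage per 1 FPKM, was 0.262 in p40 and 0.215 in p45, against 0.319 in p37 and 0.345 in p42. Both exon 2 libraries were thus the shallower ones, and a difference that goes with exon 2 cannot be told apart from one that goes with depth. In bulk RNA, a change in how many cells took up a plasmid and a change in RNA per cell cannot be told apart either. The summed level of the 8 HEK293 markers found in the tables was 201 and 204 FPKM in p40 and p45, and 215 and 218 FPKM in p37 and p42. Markers of other cell types were not low in sum. For 10 fibroblast markers it was 183 and 211 FPKM in p40 and p45, and 188 and 193 FPKM in p37 and p42. Most of that was VIM, at 168 and 192 FPKM in p40 and p45, and 169 and 176 FPKM in p37 and p42. Of the 10, 5 were under 1 FPKM in p40 and in p45, 6 in p37 and 4 in p42. For 10 cervical carcinoma line markers the sum was uneven within each side. It was 271 and 38.7 FPKM in p40 and p45, and 154 and 294 FPKM in p37 and p42. Under 1 FPKM were 5 of them in p40 and in p42, and 6 in p45 and in p37. The source of these levels was not tested.

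AUF1 binds AU-rich and U-rich stretches of RNA through a pair of RNA recognition motifs. It is known for promoting the decay of short-lived mRNAs and, on other targets, for stabilising them or changing their translation. Exon 2 encodes a short insert just before the first of these motifs, and isoforms with and without it are known to differ in how tightly they bind AU-rich RNA. Exon 7 encodes a stretch near the C-terminus.

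The sequences that define the comparison are the junctions around exon 2. They are read from the GENCODE 29 transcripts of HNRNPD, on the minus strand of chromosome 4 in GRCh38, where exon 2 covers 82371528 to 82371584. Exon 2 is 57 nt long, or 19 codons, so its loss keeps the reading frame. In the first line the capitals mark exon 2, between the last 20 bases of exon 1 and the first 20 of exon 3, and the second line shows exon 1 joined directly to exon 3. The third line is the stretch of HNRNPDP1, a processed pseudogene of HNRNPD on chromosome X (GRCh38 64044477 to 64044533, plus strand), that matches exon 2, with capitals at the 5 of 57 bases that differ.
HNRNPD with exon 2: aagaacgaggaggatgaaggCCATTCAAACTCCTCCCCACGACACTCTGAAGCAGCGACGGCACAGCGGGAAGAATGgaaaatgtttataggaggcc
HNRNPD without exon 2: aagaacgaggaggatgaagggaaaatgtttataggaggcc
HNRNPDP1: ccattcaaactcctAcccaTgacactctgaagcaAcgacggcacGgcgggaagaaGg

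HNRNPD was far above the control level in all 4 libraries, and its summed level differed little between the sides. It stood at 3399 FPKM in p40 and 3599 FPKM in p45, against 3661 FPKM in p37 and 4840 FPKM in p42. The empty vector library held 311 FPKM and the control siRNA library 295 FPKM, so the level was 10.9-fold (p40), 11.6-fold (p45), 11.8-fold (p37) and 15.6-fold (p42) that of the empty vector. The exon 2 side averaged 3499 ± 141 FPKM and the other side 4251 ± 834 FPKM (SD, n = 2 each). Between the sides the log2 difference was -0.27 (SE 0.18, limma adjusted p = 0.869), with p42 the highest and the other libraries close together. On a sum that weights each transcript by its length the difference was 0.09.

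The transcripts to which the HNRNPD fragments were assigned differed sharply. On the p37 and p42 side, those that could be placed matched the labels for exon 2. ENST00000503822, which joins exon 1 to exon 3, held 2663 FPKM in p37 and 2598 FPKM in p42 as deposited, and was listed at 0 in p40, p45 and the other libraries. It made up 70.7% of HNRNPD FPKM in p37 and 53.4% in p42. This transcript does not hold exon 7, with which p42 is labelled. ENST00000307213, which is not in GENCODE 29 and could not be placed, held 1956 FPKM in p40 and 1101 FPKM in p37. It was the largest HNRNPD transcript of p40, so a transcript of unknown exons was shared by both sides. Annotated transcripts that hold exon 2 made up 43.7% of HNRNPD FPKM in p40, 0% in p45, p37 and p42, and 49.8% and 50.5% in the empty vector and control siRNA libraries. The p40 share came from ENST00000509107 alone, at 1518 FPKM. Its deposited status was LOWDATA, a flag for an uncertain estimate, although its deposited bounds in p40 were 1453 to 1584 FPKM. Without transcripts of that status the p40 share was 0%. The same status lay on ENST00000513584, on which the reading of exon 7 below rests.

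In p45 the exon could not be seen in this way. All HNRNPD fragments of that library were assigned to ENST00000513584, which lacks both exon 2 and exon 3 (1923 FPKM), and to ENST00000543098 (1663 FPKM), which is not in GENCODE 29 and whose exons are therefore not given here. Both carried the LOWDATA status. ENST00000513584, which holds exon 7, had 1709 FPKM in p42 and was listed at 0 in p40 and p37, so exon 7 was seen in the libraries labelled with it. What the p45 values show of exon 2 is only that the annotated transcript joining exon 1 to exon 3 was listed at 0. The all-isoform library, given p37 and p42 as well, also listed that transcript at 0. A value of 0 therefore does not show that the junction was absent.

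HNRNPDP1 carries an exon 2 sequence of its own and stood higher in the exon 2 libraries. It had 14.2 FPKM in p40 and 11.2 FPKM in p45, against 7.57 FPKM in p37 and 5.84 FPKM in p42, with 0.75 FPKM in the empty vector and 0.40 FPKM in the control siRNA library. The sides did not overlap, and the all-isoform library had 14.4 FPKM. The log2 difference was 0.83 (SE 0.25), which did not pass the test (limma adjusted p = 0.780). Fragments of the overexpressed HNRNPD and of its pseudogene share most of their sequence, so the level of the pseudogene is uncertain.

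The nearest relatives of AUF1 differed less. HNRNPDL, a paralog that also binds AU-rich RNA, had 115 FPKM in p40 and 113 FPKM in p45, against 88.3 FPKM in p37 and 101 FPKM in p42, a log2 difference of 0.27 (SE 0.14, limma adjusted p = 0.869). HNRNPAB, another paralog, had 187 and 171 FPKM in p40 and p45, against 206 and 194 FPKM in p37 and p42, a log2 difference of -0.16 (SE 0.13, limma adjusted p = 0.888).

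Across 9223 tested genes no gene passed the test for the exon 2 contrast. A gene was tested when it averaged 5 FPKM or more over the 4 libraries and was above 0 in each. Of these, limma called 0 genes (0%) at an adjusted p under 0.05, and the smallest adjusted p was 0.293. At an unadjusted p under 0.05 there were 323 genes higher (3.5%) and 229 lower (2.48%). With exon 7 as a covariate limma again called 0 genes, with 285 higher and 184 lower at an unadjusted p under 0.05. With 2 libraries a side, an exact permutation test of a single gene cannot go below a two-sided p of 1 in 3. No gene is therefore said to have changed below, and sizes are given as descriptions of these 4 libraries.

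As a description by size, a gene was counted as apart when both exon 2 libraries lay 2-fold or more above, or below, both others on the scale of log2(FPKM + 1). On this rule 52 genes stood higher (0.564%) and 23 stood lower (0.249%). Without a size requirement the sides did not overlap in 1639 genes above (17.8%) and 1700 below (18.4%).

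The matched pairs p40 over p37 and p45 over p42 differ in exon 2 at a fixed state of exon 7 and share no library. In p40 over p37, 375 genes were 2-fold higher (4.07%) and 316 lower (3.43%), and in p45 over p42, 465 were higher (5.04%) and 405 lower (4.39%). Of the higher genes 75 (0.813%) were common to both pairs, which is 20% of the first set and 16.1% of the second. Of the lower genes 32 (0.347%) were common, 10.1% of the first set and 7.90% of the second. Against these 107 genes with the same direction, 86 genes (0.932%) were 2-fold apart in opposite directions. Across all tested genes the Pearson correlation of both ratios was 0.02, as a description over genes, which are not independent of each other. The most extreme case of opposite directions, chosen after its values were seen, was MTRNR2L10, a nuclear copy of mitochondrial sequence, with 6275 FPKM in p40 and 1.34 FPKM in p45, against 3.98 FPKM in p37 and 5060 FPKM in p42.

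The widest gaps belonged mostly to genes in which a short annotated transcript was present on 1 side and listed at 0 on the other. PSMD1, a regulatory subunit of the proteasome, had 90.0 FPKM in p40 and 70.7 FPKM in p45, against 13.8 FPKM in p37 and 15.8 FPKM in p42. The log2 difference was 2.35 (SE 0.20, limma adjusted p = 0.293), and the empty vector and control siRNA libraries, at 97.7 and 80.7 FPKM, lay with the exon 2 side. A transcript of 444 nt, ENST00000467792, held 72.6 and 70.7 FPKM in p40 and p45 and was listed at 0 in p37 and p42, while the longest PSMD1 transcript is 3326 nt. When each transcript was weighted by its length, so that the sum follows the amount of sequenced RNA, the PSMD1 difference was 0.19 and the sides overlapped.

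NUP188, a scaffold nucleoporin of the nuclear pore, showed the same pattern in the other direction. It had 7.03 FPKM in p40 and 4.29 FPKM in p45, against 68.6 FPKM in p37 and 52.7 FPKM in p42. The log2 difference was -3.23 (SE 0.29, limma adjusted p = 0.293). Here the empty vector, control siRNA, AUF1 siRNA and all-isoform libraries, at 55.3 to 63.9 FPKM, all lay with p37 and p42. ENST00000491502, of 534 nt, accounted for it, with 64.3 FPKM in p37 and 52.7 FPKM in p42 and 0 in both exon 2 libraries, and the length-weighted difference was -0.37.

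Others with wide gaps upward were RPS6KA3 (the kinase RSK2, log2 difference 2.18), PSD3 (an exchange factor for ARF6, 1.82), C19orf70 (a subunit of the mitochondrial MICOS complex, 2.25), TLN1 (talin, which links integrins to actin, 2.02), NACA and the pseudogene ID2B. Length weighting brought RPS6KA3 to 0.63 and TLN1 to 0.80, and PSD3 to 1.26, where its sides were less than 2-fold apart. PSD3 had 63.3 and 66.8 FPKM in p40 and p45, against 18.4 and 17.1 FPKM in p37 and p42, with 21.3 FPKM in the empty vector, 13.7 FPKM in the control siRNA and 64.0 FPKM in the all-isoform library. The exon 2 libraries and the all-isoform library of PSD3 thus lay together, apart from the other libraries.

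The other genes with the widest gaps downward were MANBA (a lysosomal mannosidase, -2.28), GLI1 (a transcription factor of Hedgehog signalling, -2.44), OTULINL (-2.22), ZNF687 (-2.17), C1orf21 (-2.27), RAI14 (-1.93), SLC25A40 (a mitochondrial carrier, -1.89) and the pseudogenes RPL31P63 and RPL31P4. On the length-weighted sum the 7 protein-coding genes among them lay between -0.83 (GLI1) and 0.07 (C1orf21). For ZNF687 the side without exon 2 was the unusual one, at 22.7 FPKM in p37 and 19.2 FPKM in p42, since p40, p45 and the remaining libraries lay between 2.58 and 4.36 FPKM.

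NACA and C19orf70 depended on transcripts assembled from the reads, which the per-gene sum leaves out. NACA, a subunit of the nascent polypeptide-associated complex that meets new proteins at the ribosome, had 367 FPKM in p40 and 414 FPKM in p45, against 59.1 FPKM in p37 and 74.5 FPKM in p42, a log2 difference of 2.54 (SE 0.18, limma adjusted p = 0.293). Once assembled transcripts linked to NACA were added, the values were 367 and 414 FPKM in p40 and p45 and 473 and 363 FPKM in p37 and p42, and the log2 difference was -0.09. For C19orf70 the same step turned 2.25 into -0.64, and for ZNF521, a zinc finger transcription factor, it turned -1.67 into 0.03. This step was chosen after the data were seen.

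Short transcripts were frequent among all genes that stood apart. The transcript that carried most of the difference was under 1000 nt in 46 of the 52 higher genes and in 20 of the 23 lower genes, or 88.5% and 87.0%, against 56.7% of all tested genes. Of the 52 higher genes 22 stayed 2-fold apart on the length-weighted sum and 40 with assembled transcripts, and of the 23 lower genes 7 and 13 did. By all 3 sums 17 genes stood higher and 5 lower, and these are described next. They were picked by these values, so no test is attached to their number or kind. A gene with 1 annotated transcript has the same value on the plain and the length-weighted sum. For such a gene the length-weighted sum is no further check, and the rule keeps it more easily.

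The 17 higher genes were 7 long intergenic noncoding RNAs, 1 antisense RNA, 2 processed pseudogenes and 7 protein-coding genes, most of them with low values. The noncoding RNAs were AC018467.1, LINC02884, AL359649.1, LINC01485, AC018742.1, AP001189.4, EN2-DT and the antisense CEP72-DT, which without stated strand cannot be told apart from the gene opposite it. The pseudogenes were ID2B and ATP5MGP2. The protein-coding genes were ART1 (an ADP-ribosyltransferase), GRAP2 (an adaptor of T cell signalling), DCDC2C, ALKAL2 (a ligand of the receptor ALK), SLC25A43, HSPB8 (a small heat shock protein) and HS3ST4 (a heparan sulfate sulfotransferase).

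AC018467.1 (hg19 chromosome 2, 23240997 to 23421927) had 12.6 FPKM in p40 and 11.1 FPKM in p45, against 3.21 FPKM in p37 and 2.76 FPKM in p42, a log2 difference of 1.69 (SE 0.23, limma adjusted p = 0.501). GRAP2 had 9.25 and 9.83 FPKM in p40 and p45, against 3.10 and 2.39 FPKM in p37 and p42, a difference of 1.499 (SE 0.24, limma adjusted p = 0.575). HSPB8 had 9.52 and 9.64 FPKM in p40 and p45, against 3.17 and 2.99 FPKM in p37 and p42. In each of these the exon 2 libraries lay close together and well above p37 and p42. The AUF1 siRNA library stood higher still for AC018467.1 (27.5 FPKM) and GRAP2 (17.7 FPKM), and had 7.95 FPKM for HSPB8.

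The AUF1 siRNA library, with 165 FPKM of HNRNPD, was above both exon 2 libraries in 12 of these 17 genes. The median over the 17 genes was 11.1 FPKM in p40 and in p45, 3.37 FPKM in p37, 3.19 FPKM in p42, 17.4 FPKM with AUF1 siRNA, 5.51 FPKM with all isoforms, 5.42 FPKM with the empty vector and 2.97 FPKM with the control siRNA. Both exon 2 libraries exceeded both controls in 14 of the 17. The genes were picked for high values in p40 and p45, so that count is in part built in. The medians in p37 and p42 also lie under the mean of 5 FPKM that the filter asked for. No share over all tested genes is given for either count. The summed level of the 5 blood cell markers, genes HEK293 is not known for, was also higher in both exon 2 libraries. It was 12.6 and 14.2 FPKM in p40 and p45, against 8.51 and 7.01 FPKM in p37 and p42. SPI1, the 1 member that was tested, held 6.23 and 7.35 FPKM of it in p40 and p45, and 3.71 and 3.85 FPKM in p37 and p42. The sum was 17.1 FPKM with AUF1 siRNA, 9.41 FPKM with all isoforms, 4.46 FPKM with the empty vector and 3.84 FPKM with the control siRNA. The empty vector thus lay below p37 and p42 here but above them for the 17 genes. Of these markers 2 were under 1 FPKM in p45 and 3 in each other library, and their part in the result was not tested.

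Over all 272 tested long intergenic noncoding genes the median log2 difference was 0.18, with 174 above 0, against -0.01 and 4514 of 9223 for all tested genes. The median was 0.11 in p40 over p37 and 0.21 in p45 over p42. Relative to the mean of each gene over 8 libraries, it was 0.10 in p40, 0.19 in p45, -0.05 in p37 and -0.02 in p42. Other libraries spanned a wider range, with 0.31 with AUF1 siRNA, -0.02 with all isoforms, -0.13 with the empty vector and -0.27 with the control siRNA. Of these genes 10 stood 2-fold higher (3.68%) and 0 lower, against 0.564% and 0.249% of all tested genes, and limma called 0 of them, like all other genes. The well-known abundant long noncoding RNAs, a list of 14 tested genes, had a median of -0.23, with -0.20 in p40 over p37 but 0.02 in p45 over p42, and TUG1 (27.9 and 22.0 FPKM in p40 and p45, against 36.6 and 38.0 FPKM in p37 and p42, limma adjusted p = 0.807) and JPX (4.37 and 3.57 FPKM in p40 and p45, against 6.04 and 6.48 FPKM in p37 and p42) were the members named by their gaps. With assembled transcripts JPX turned to 0.43 and TUG1 was at -0.07, and the sides overlapped in both.

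ID2B, a processed pseudogene of the transcriptional inhibitor ID2 (hg19 chromosome 3, 62109878 to 62110282), had 45.6 FPKM in p40 and 33.2 FPKM in p45, against 5.17 FPKM in p37 and 4.26 FPKM in p42. The other libraries fell on both sides, with 31.4 FPKM for all isoforms and 43.1 FPKM for the empty vector but 4.97 FPKM for the control siRNA and 5.97 FPKM for the AUF1 siRNA. Its parent ID2 differed far less and the other way, at 172 and 166 FPKM in p40 and p45 and 185 and 175 FPKM in p37 and p42 (log2 difference -0.09, limma adjusted p = 0.932).

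All 5 genes that stood lower by the 3 sums were processed pseudogenes of RPL31, a protein of the large ribosomal subunit. RPL31P4 (hg19 chromosome 14, 59261372 to 59261747) had 78.4 FPKM in p40 and 87.5 FPKM in p45, against 271 FPKM in p37 and 295 FPKM in p42, a log2 difference of -1.76 (SE 0.14, limma adjusted p = 0.293). RPL31P63, RPL31P10, RPL31P49 and RPL31P17 had log2 differences between -2.07 and -1.71. Another tested copy, RPL31P46, did not stand apart, with 8.89 and 2.43 FPKM in p40 and p45 and 7.72 and 6.06 FPKM in p37 and p42. RPL31 itself lay the other way, with 2614 FPKM in p40 and 2863 FPKM in p45, against 1939 FPKM in p37 and 2136 FPKM in p42 (log2 difference 0.43, SE 0.13, limma adjusted p = 0.780).

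The copies are nearly identical to the parent. Aligned to the RPL31 mRNA, RPL31P4 differs at 10 of 376 bases (97.3% identity), and the other copies of the 5 at 14 to 23 bases (93.9% to 96.3%). The 45 coding bases with the most differences between RPL31 (GRCh38 chromosome 2, within 101004265 to 101005984, plus strand, across an exon junction) and RPL31P4 (GRCh38 chromosome 14, 58794866 to 58794910, plus strand) are shown as an example of how little separates the copies, with capitals at the 4 bases that differ.
RPL31: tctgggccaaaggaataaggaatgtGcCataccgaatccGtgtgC
RPL31P4: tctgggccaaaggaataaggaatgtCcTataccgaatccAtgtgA

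No source used here says how reads of such copies were shared out, so the pseudogene levels are uncertain. The libraries outside the comparison fell on both sides. RPL31P4 had 72.0 FPKM with all isoforms and 109 FPKM with the control siRNA, near the exon 2 libraries, but 318 FPKM with the empty vector and 232 FPKM with the AUF1 siRNA, near p37 and p42. RPL31 had 2381 FPKM with all isoforms, 2015 FPKM with the empty vector, 3060 FPKM with the control siRNA and 1750 FPKM with the AUF1 siRNA.

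By nearness, the control libraries took no common side over the genes that stood apart. Of the 52 higher genes, the empty vector and control siRNA libraries both lay nearer the exon 2 side in 14, both nearer the other side in 25, and on different sides in 13. Of the 23 lower genes these counts were 4, 5 and 14. Both exon 2 libraries lay above both controls in 37 of the 52 and below both in 1. Both libraries without exon 2 lay below both controls in 20 of the 52 and above both in 4. In the 23, the exon 2 libraries lay below both controls in 14 and above in 1, and the others above in 9 and below in 0. The genes were picked by these 4 libraries, and no share over all tested genes is given. The all-isoform library, which held all isoforms together, lay on the exon 2 side in 26 of the 52 and in 12 of the 23.

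Among the gene lists, most ribosomal proteins lay slightly above 0. These are structural proteins of the cytosolic ribosome and among the most abundant mRNAs of the cell. Of 74 tested members 64 had a log2 difference above 0, with a median of 0.16, against 4514 of 9223 and -0.01 for all tested genes. The sides did not overlap in 35 members above (17.8% of all genes) and 1 below (18.4%). The median was 0.20 in p40 over p37 and 0.16 in p45 over p42. In both pairs 44 members (59.5%) were above 0 and 1 (1.35%) was below, against 25.8% and 26.7% of all tested genes. None was called by limma and none stood 2-fold apart. By limma 8 had an unadjusted p under 0.05, all higher, against 3.5% of all genes higher and 2.48% lower.

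RPS23, a protein of the decoding site, had 1188 FPKM in p40 and 1192 FPKM in p45, against 868 FPKM in p37 and 877 FPKM in p42, a log2 difference of 0.45 (SE 0.11, limma adjusted p = 0.741). RPS27A, made as a fusion with ubiquitin, had 218 and 374 FPKM in p40 and p45, against 107 and 114 FPKM in p37 and p42, a difference of 1.36 (SE 0.29, limma adjusted p = 0.631). With assembled transcripts RPS27A had 395 and 374 FPKM in p40 and p45, against 281 and 277 FPKM in p37 and p42, a difference of 0.46. The libraries without a single isoform spanned a wider range than this contrast. Relative to the mean of each gene over 8 libraries, the median of the list was 0.14 in p40 and 0.16 in p45, -0.08 in p37 and 0.02 in p42, but 0.30 with the control siRNA, -0.14 with the empty vector and -0.20 with all isoforms. Ribosomal protein mRNAs are short, and genes in general followed length: the median difference was 0.07 for 1310 genes whose longest transcript is under 1000 nt and -0.07 for the 508 genes of the longest class. The part of length in the ribosomal protein result was not tested.

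Most splicing factors and relatives of AUF1 lay slightly below 0. Of 48 tested splicing factors 37 were below 0, with a median of -0.13, and the sides did not overlap in 22 below (18.4% of all genes) and 2 above (17.8%). Relative to the mean of each gene over 8 libraries, their median was -0.08 in p40 and in p45, 0.03 in p37 and 0.09 in p42. Other libraries spanned a wider range, from 0.17 with the empty vector to -0.17 with AUF1 siRNA. SF3B2, a subunit of the U2 snRNP, had 50.2 and 58.1 FPKM in p40 and p45, against 89.8 and 87.5 FPKM in p37 and p42. Its log2 difference was -0.70 (SE 0.15, limma adjusted p = 0.631), and -0.40 with assembled transcripts. SRSF4, a serine and arginine-rich splicing regulator, had 35.5 and 40.7 FPKM in p40 and p45, against 56.8 and 90.7 FPKM in p37 and p42, a difference of -0.90 (SE 0.27, limma adjusted p = 0.780). The control siRNA library, at 44.1 FPKM for SRSF4, lay with the exon 2 side and the empty vector, at 66.8 FPKM, with the other.

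Of 14 tested relatives of AUF1 and other proteins that bind AU-rich elements, 11 were below 0, with a median of -0.19, and the sides did not overlap in 8 below (18.4% of all genes) and 2 above (17.8%). HNRNPA2B1, an hnRNP of RNA transport and splicing, had 367 and 309 FPKM in p40 and p45, against 546 and 442 FPKM in p37 and p42 (log2 difference -0.545, SE 0.17, limma adjusted p = 0.802). With assembled transcripts HNRNPA2B1 turned to 0.23 and the sides overlapped, at 479 and 698 FPKM in p40 and p45 and 546 and 442 FPKM in p37 and p42. ELAVL1, which encodes HuR, an AU-rich-element-binding protein that stabilises mRNA, had 39.4 and 22.5 FPKM in p40 and p45, against 42.9 and 42.3 FPKM in p37 and p42. HNRNPA3 lay the other way, with 153 FPKM in both exon 2 libraries against 126 and 118 FPKM in p37 and p42.

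Among the mRNAs known as AUF1 targets the differences were small. Of 30 listed genes 13 were tested, 4 were above 0 and 9 below, and the median was -0.11, with -0.03 in p40 over p37 and -0.27 in p45 over p42. The sides did not overlap in 4 members below (18.4% of all genes) and 0 above (17.8%), and none stood 2-fold apart, was called by limma or had an unadjusted p under 0.05. CCND2, which encodes cyclin D2, had 23.6 and 24.1 FPKM in p40 and p45, against 27.4 FPKM in both p37 and p42. JUN, a transcription factor with an AU-rich element in its mRNA, had 13.9 and 13.7 FPKM in p40 and p45, against 15.8 and 14.2 FPKM in p37 and p42. BCL2, an inhibitor of apoptosis, had 6.31 and 5.97 FPKM in p40 and p45, against 6.48 and 6.09 FPKM in p37 and p42.

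AU-rich motifs were read from the longest annotated 3' end past the coding sequence of 7714 tested protein-coding genes, on the mRNA strand only. TATTTAT, which contains the shorter ATTTA, occurs in 38.1% of these genes. Their median log2 difference was -0.05, against 0.01 for genes without it. Of the genes that stood apart, 11 of 37 higher (29.7%) and 7 of 18 lower (38.9%) hold the motif. The longer TTATTTATT, which contains TATTTAT, occurs in 9.83% of the genes, in 6 of 37 higher (16.2%) and in 1 of 18 lower (5.56%). ATTTA occurs in 76.7% of the genes, with medians of -0.03 with it and 0.04 without it. Longer mRNAs have more room for such motifs, and length moved with the difference as given above. Whether motif and length go together in these genes, and the part of length in these medians, was not tested.

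In several of the remaining pathway lists the matched pairs lay on opposite sides of 0. The mRNA decay list had 12 of 30 members above 0 and a median of -0.07, and CNOT8, a deadenylase subunit, had 28.6 and 28.1 FPKM in p40 and p45, against 19.9 and 9.69 FPKM in p37 and p42. The microRNA machinery (9 tested) had a median of -0.12 and translation factors (41 tested) of -0.04. The respiratory chain list had 29 of 41 above 0 and a median of 0.07, DNA damage response 12 of 21 and 0.09, and DNA replication 13 of 36 and -0.08. Medians of the lists of mitosis, heat shock, unfolded protein response, interferon response, p53 targets, cholesterol synthesis, glycolysis, histones, immediate early genes and telomere maintenance lay between -0.07 and 0.05. For immediate early genes the median was 0.24 in p40 over p37 and -0.13 in p45 over p42, and for histones 0.16 and -0.19.

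Of all list members, RFC1 and FOSL2 stood 2-fold apart. RFC1, the large subunit of the clamp loader of DNA replication, had 38.1 and 36.4 FPKM in p40 and p45, against 16.6 and 1.46 FPKM in p37 and p42 (log2 difference 2.54, SE 0.96, limma adjusted p = 0.807). FOSL2, an AP-1 transcription factor, had 26.9 and 25.6 FPKM in p40 and p45, against 9.29 and 2.72 FPKM in p37 and p42 (2.14, SE 0.52, limma adjusted p = 0.738). Both rested on short transcripts, of 504 nt in RFC1 and 393 nt in FOSL2, that were listed at 0 in p37 and p42, and the length-weighted differences were 1.13 for RFC1 and 0.20 for FOSL2.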

How the data were processed

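Trizol-extracted RNA was amplified with a NuGEN Ovation kit, which primes polyadenylated and other RNA alike, and run on a Genome Analyzer II, per the labels' protocols. TopHat2 2.0.6, Cufflinks 2.0.2, Cuffdiff and hg19 stand in the submitters' processing notes. The deposited tables give FPKM per transcript with bounds, per the file headers. Coverage, also deposited per the file headers, served as relative depth, since read numbers are unknown, and intervals that need counts are not given. The strand of the reads and the annotation release are not given in the sources used here.

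Of 160485 Ensembl transcripts, 136913 matched GENCODE 29 and 20412 were placed by the tables. FPKM of transcripts of 300 nt or more was summed for 38729 genes and divided by median-of-ratios factors from 11819 genes, which ran from 0.939 to 1.07. Assembled transcripts were left out of the main sum. log2(FPKM + 1) was fitted with limma 3.58.1 (R 4.3.3), with trend, on the 4 libraries, with Benjamini-Hochberg adjustment over all tested genes. A gene was tested at a mean of 5 FPKM or more and above 0 in all 4 libraries, with no failed transcript. Fold changes on this scale understate those of low genes. The fit was tested on simulated data.

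Named genes were HNRNPD and relatives, the 10 widest gaps in each direction, the 5 widest by both the summed and the length-weighted measure, and for each of 25 lists the 2 widest gaps and all members 2-fold apart. Other genes were chosen after their values were seen. The members, lists and rules were chosen with earlier results of these data known. Some genes that the rule names are not reported here.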

Additional observations from a re-analysis of the deposited data

Results flagged for a closer look

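In 5 list members the matched pairs p40 over p37 and p45 over p42 were 2-fold apart in opposite directions. The difference between the pairs was not tested, since each pair holds 1 library a side. KLF6, an immediate early transcription factor, had log2 ratios of -1.19 in p40 over p37 and 1.37 in p45 over p42. MCM5, a subunit of the replicative helicase, had -1.69 and 1.19. TNRC6B, a partner of Argonaute proteins, had 2.12 and -2.11. XRN1, the cytoplasmic 5' to 3' exonuclease, had -2.08 and 1.91. NDUFS7, a subunit of respiratory complex I, had 1.35 and -1.28.

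In each of these genes the p40 library lay near the p42 library and the p45 library near the p37 library. TNRC6B had 206 FPKM in p40 and 45.1 FPKM in p45, against 46.4 FPKM in p37 and 198 FPKM in p42. On the length-weighted sum the ratios of TNRC6B were 0.83 and -1.05, those of XRN1 -0.72 and 0.84, those of KLF6 -0.59 and 0.77, and those of MCM5 -0.06 and 0.08. NDUFS7 kept 1.18 and -1.01.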

How the results depend on the processing

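Limma called 0 genes in both directions in all settings tried but a pair. With genes listed at 0 in some library included it called 7 higher and 2 lower, SKP1 and EIF2B5 among the higher ones, both listed at 0 in p37 and p42 although most cells use them. Without the length minimum it called 1 higher and 0 lower.

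Counts of genes 2-fold apart, 52 higher and 23 lower, followed the filter. They were 101 and 40 at a minimum mean of 1, 11 and 4 at 20, 106 and 41 without a minimum, 81 and 59 with genes at 0 included, and 22 and 12 on the length-weighted sum. Leaving out p40, p45, p37 or p42 gave 161, 123, 217 and 199 higher and 220, 153, 71 and 91 lower, since fewer libraries must then be apart. The counts in both pairs, 75 and 32, were 159 and 65, 16 and 5, 166 and 67, 116 and 75, and 38 and 21 in the same 5 settings.

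The share of HNRNPD in transcripts with exon 2 in p40, 43.7%, was 0% without LOWDATA transcripts and 27.3% when weighted by length. Among genes named by the rule and reported here, on the length-weighted sum HNRNPD turned to 0.09, C1orf21 turned to 0.071 and ECT2 to 0.09. RAI14 turned to 0.24 without the length minimum. With assembled transcripts NACA turned to -0.087, C19orf70 to -0.64, ZNF521 to 0.026, HNRNPA2B1 to 0.23, JPX to 0.43, EIF3B to 2.28, UPF3A to 0.03, GPI to 0.02 and ADAR to 0.001. Scaling by the 75th percentile moved the median of all genes to -0.06 and ribosomal proteins to 0.10. Without p37 their median was 0.10 and without p42 0.21. The labels give no shared replicate numbers to block on. The fit with exon 7 as a covariate, which pairs p40 with p37 and p45 with p42 by design, called 0 genes, with a smallest adjusted p of 0.875. The number of reads is unknown, so what depth limits cannot be stated.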
